A study of Oryza sativa Japonica Group with 12 samples.

Results

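The genes described here rose strongly in rice panicles between the stage before flowering (BF) and 5 days after pollination (5 DAP), and rose in fst as well as in wild type (WT). The fst plants carry a spontaneous 8-bp deletion in FST (OsMADS29, a B_sister MADS-box gene) in the japonica cultivar Junambyeo. They are female sterile, and their embryo and endosperm stop growing within days of fertilization. The arrays fall into 4 groups of 3: fst at 5 DAP (M5D), WT Junambyeo at 5 DAP (W5D), fst before flowering (MBF) and WT before flowering (WBF). Each sample pooled 20 panicles from 10 plants, all grown in a greenhouse with no other treatment, and the labels give panicles as the tissue, where the study's notes also speak of spikelets, so that hulls, anthers and ovaries are mixed and a share of rachis is not known. The mutant is a single spontaneous line, labelled with its earlier name cyn (cynosure). A description label of its arrays calls them wild lines, and was set aside because the genotype, source name and title all give the mutant. RNA was measured on the Affymetrix Rice GeneChip, and the values are RMA signals, in which background correction, alignment of the arrays and summary over the probes of a set had been done before deposition.

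The members were chosen from the values themselves. Among 57258 probe sets, those whose mean log2 signal differed by less than 1 between fst and WT at 5 DAP were ranked by the smaller of the 2 rises (5 DAP against BF in fst, and the same in WT), and the first 150 were taken. A log2 change of 1 is a factor of 2 in signal. The size of both rises and the likeness of the genotypes at 5 DAP were therefore fixed by the rule and are given as a description, without a test. All 4 group means entered the rule, so that the difference between the genotypes before flowering and the difference between the 2 rises were not free of it either.

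After fertilization the rice panicle changes as a whole. Anthers are shed, the ovary swells into the caryopsis, its nucellus and pericarp are remodelled and broken down to make room, and the hulls go on with photosynthesis, water transport and defence. Most storage protein and starch of the seed are made in the new endosperm. Much of the other change takes place in maternal tissue. The fst plants have such tissue too, but the paper reports defects of integuments, chalaza and micropyle in it before fertilization. The part of maternal tissue in the members' rise was not tested. In such mixed samples, fewer cells of a type and less RNA per cell cannot be told apart.

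The signal of the members was low before flowering and high at 5 DAP on every array. The median over the 150 members was 596, 551 and 466 on the M5D arrays and 493, 503 and 456 on the W5D arrays, against 35.9, 41.2 and 41.9 on the MBF arrays and 36.8, 34.2 and 44.3 on the WBF arrays. The median of all probe sets stayed between 30.8 and 33.6 on the 12 arrays. Arrays of a group correlated at 0.990 to 0.996 over all probe sets. The members' median rise on the log2 scale was 3.28 in fst and 3.34 in WT, where the medians of all probe sets were 0.01 and 0.06. The rises ran from 2.52 to 8.31 in fst and from 2.50 to 7.70 in WT. Both rises were at least 4 for 19 members and at least 3 for 73. In both genotypes, every 5 DAP array lay above every BF array for all 150 members, a separation that 12.4% of all probe sets showed, and all 150 passed limma's test in both genotypes at an adjusted p of 0.05, as did 9.23% of all probe sets. Both counts follow from the rule. The members spanned a wide range of levels, with mean signals of 63.1 to 8822 in M5D, 44.2 to 12882 in W5D, 7.08 to 1479 in MBF and 6.34 to 1811 in WBF. In both genotypes 42 members exceeded a mean signal of 1000 at 5 DAP, and 31 lay under 20 before flowering, close to the lowest signals of the array.

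**Figure D1:**
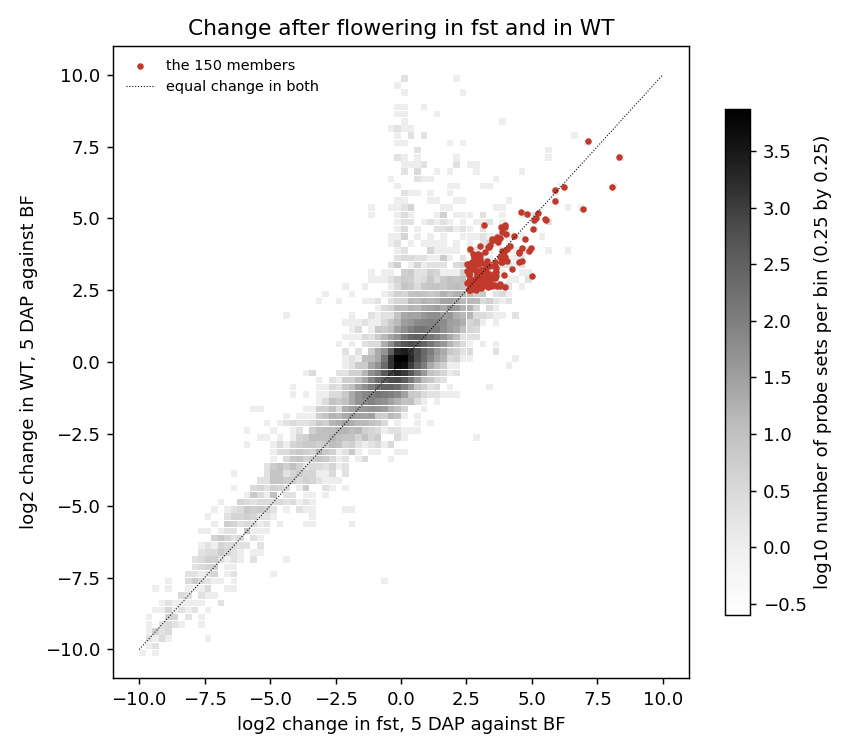
Log2 change from BF to 5 DAP in fst (x axis) and in WT (y axis). Grey squares count all probe sets (darker for more), red points are the 150 members, and the dotted line marks equal change. The members lie along the line above 2.50 in both genotypes, and the grey column near 0 in fst holds probe sets that rose in WT alone.

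Most probe sets with a WT rise of this size did not keep it in fst. A rise in WT at least as large as that of rank 150 was found for 597 probe sets. Of these, 343 (57.5%) were at least 1 lower in fst than in WT at 5 DAP, with a median rise of 0.81 in fst and 3.96 in WT. Another 21 were at least 1 higher in fst, and 233 (39.0%) differed by less than 1. The members are the part of these 233 whose fst rise was also large.

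Most endosperm markers did not follow the members in fst. Of the 8 endosperm and seed genes on the marker list, 5 were lower in fst than in WT at 5 DAP by limma's test, and 1 (SSI, a starch synthase) rose in both genotypes. SSI already averaged 797 in MBF and 1089 in WBF. GLUA-2 fell in both genotypes, from means of 912 in MBF and 571 in WBF to 178 in M5D and 167 in W5D. GLUB-4 had mean signals of 7.58 to 9.35 in every group, near the lowest of the array. The glutelin gene GLUA-1, for a storage protein of the endosperm, had 7.67, 7.73 and 7.26 in M5D and 717, 3293 and 1910.1 in W5D, against 7.42, 5.73 and 5.73 in MBF and 5.49, 6.90 and 8.43 in WBF. It was thus at the bottom of the range in fst at the time when the members were high there. The summed signal of the 8 genes ran from 3246 to 4001 over the M5D arrays and from 8099 to 19573 over the W5D arrays, against 2834 to 2949 in MBF and 2868 to 3255 in WBF.

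The anther and pollen markers moved against the members. Of 6 such genes 4 fell in both genotypes, and the other 2 (PTC1 and CYP703A3) had mean signals of 9.73 to 13.1 in every group. RTS, a gene of the tapetum, averaged 16.5 ± 4.25 in M5D and 15.4 ± 4.13 in W5D, against 3662 ± 3431 in MBF and 12255 ± 4993 in WBF (SD, n = 3 arrays each). The summed signal of the 6 genes was 84.7 to 106 in M5D and 79.2 to 87.8 in W5D, against 1698 to 8238 in MBF and 7155 to 16918 in WBF. The fall of these genes ran together with the rise of the members, and its part in the rise was not tested.

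Of 4 MADS-box genes active in the ovule, 3 rose with the members in both genotypes: OsMADS13, OsMADS21, which is itself a member, and FST, the mutated gene. The fourth, MADS3, changed by 0.28 in fst, which did not pass limma's test, and fell in WT (-0.44, adjusted p = 0.00786 from limma). The summed signal of the 4 genes, FST included, was 4578 to 4694 in M5D and 2973 to 3627 in W5D, against 1355 to 1572 in MBF and 1076 to 1267 in WBF. The part of a larger share of ovary tissue in the members' rise was not tested. The hull and leaf photosynthesis genes on the list (3 genes, with RBCS1 near the lowest signals throughout) did not pass the test in either genotype, with sums of 16676 to 18575 in M5D, 15953 to 16864 in W5D, 16949 to 17853 in MBF and 15787 to 17359 in WBF.

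The mutated gene FST came close to the members without being one. Its probe set gave 1378, 1058 and 1339.7 in M5D and 1268, 1523 and 1263 in W5D, against 235, 211 and 236 in MBF and 116, 123 and 106 in WBF. The rise was 2.46 in fst, just under that of rank 150, and 3.55 in WT. Where the probes of FST lie relative to the 8-bp deletion is not known, so that this signal does not check the genotype labels.

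The platform's gene table listed 1 gene for 117 of the 150 members and none for the other 33, and the 117 represent 108 genes, all found in the RefSeq table (assembly ASM3414082v1), which was used for names and gene order only. Of the 108 genes, 20 carry a name of meaning, and the others are known by locus number, so that no role can be given for them. All 12 chromosomes held members, from 4 genes on chromosome 8 to 19 on chromosome 3. Probe sets whose name marks possible cross-hybridization (_x_at, _s_at or _a_at) made up 34 of the 150.

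First by the smaller of the 2 rises was PRX112, a class III peroxidase, an enzyme family of the cell wall that uses hydrogen peroxide. PRX112 had signals of 6767, 8818 and 8375 in M5D and of 3678, 4123 and 4164 in W5D, against 26.0, 25.3 and 23.7 in MBF and 27.6, 41.4 and 19.3 in WBF. The BF arrays of the genotypes overlapped, while every M5D array lay above every W5D array. The rise was 8.31 in fst and 7.15 in WT on the log2 scale (SE 0.21 each), and the genotype difference of 0.99 at 5 DAP lay just inside the limit of the rule. A further probe set of PRX112 showed neither the level nor the rise, with log2 changes of 0.34 in fst and 0.19 in WT at mean signals near 300 in W5D and WBF (320.5 and 281).

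The next members by rise had only locus numbers. LOC4339918 on chromosome 6 had 1177, 1226 and 1979 in M5D and 1439, 2747 and 2774 in W5D, against 10.4, 11.2 and 8.98 in MBF and 9.29, 9.29 and 14.3 in WBF, a rise of 7.13 in fst and 7.70 in WT (SE 0.27 each). LOC4343713 on chromosome 7 had 4221, 2877 and 2429 in M5D and 2983, 3002 and 2203 in W5D, against 10.5, 12.3 and 11.9 in MBF and 47.9, 41.7 and 30.5 in WBF. The genotypes overlapped at 5 DAP, and every MBF array lay below every WBF array. LOC4348123 on chromosome 10 was found by 2 probe sets, which rose by 6.22 and 5.87 in fst and by 6.08 and 5.97 in WT.

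OsAsp1, an aspartic protease related to the barley nucellin, a protein of the degenerating nucellus, was among the most abundant members. It had 7853, 6703 and 7598 in M5D and 5934, 6229.7 and 4643 in W5D, against 112, 109.6 and 156 in MBF and 111, 132 and 98.6 in WBF. The groups overlapped between the genotypes before flowering and not at 5 DAP, where fst lay higher. The rise was 5.89 in fst and 5.62 in WT (SE 0.16 each). Another probe set of the gene had mean signals of 4.89 in WBF and 5.62 in W5D, at the bottom of the range. OsAsp1 was the only member among 6 genes on the list of proteases and cell death, of which 3 rose in both genotypes and none fell in both.

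LOC4348110 on chromosome 10 had the least even values among the leading members. It gave 4346, 4341 and 3593 in M5D and 6166, 6849 and 8876 in W5D, against 41.9, 37.5 and 23.4 in MBF and 1445, 51.1 and 77.0 in WBF. The first WBF array lay far above the other two, and the WT rise of 5.34 carries an SE of 0.87. The SD of log2 signal over the 3 arrays exceeded 1 in some group for 18 of the 150 members, of which 11 did so in WBF, 4 in MBF, 2 in M5D and 1 in W5D. Members varied more than the rest: their median SD was 0.30 in M5D, 0.26 in W5D, 0.32 in MBF and 0.28 in WBF. Over all probe sets it was 0.17 in M5D, 0.13 in W5D, 0.14 in MBF and 0.13 in WBF.

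The rest of the 15 steepest rises lay between 4.58 and 5.55 in fst and between 4.64 and 5.23 in WT. Apart from EXPB7, none of these genes carries a name of meaning: LOC4333288 and LOC4333762 on chromosome 3, LOC4351147 on chromosome 11, LOC4352852 on chromosome 12, LOC4341522 on chromosome 6, LOC4335593 on chromosome 4, and a probe set at rank 10 for which no gene is listed. LOC4341522 was found by 3 probe sets, which rose by 4.04 to 5.02 in fst and by 3.93 to 4.64 in WT. It was one of 8 genes with more than 1 member probe set (17 probe sets in all).

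**Figure D2:**
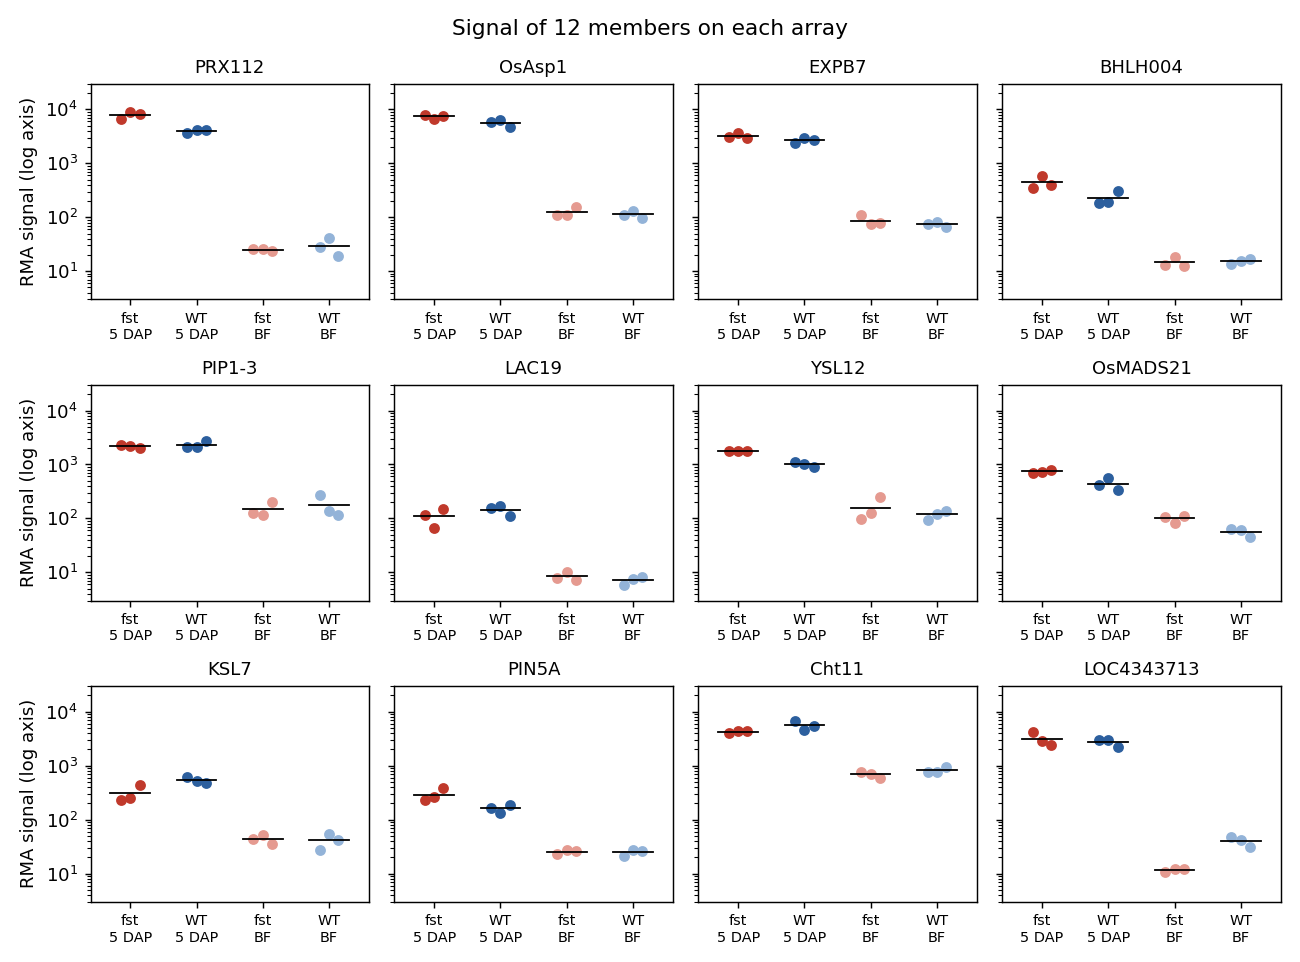
RMA signal on a log axis of 12 members on each of the 12 arrays, with 1 point per array and a line at the group mean, in the order fst 5 DAP, WT 5 DAP, fst BF and WT BF. Every 5 DAP point lies above every BF point. At 5 DAP the genotypes differ by less than 1 in mean log2 signal, as the rule sets. Arrays of fst and WT can still lie apart without overlap, at either stage. Before flowering LOC4343713 lies lower in fst than in WT (mean 11.6 in fst and 40.0 in WT).

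Several members belong to the cell wall. EXPB7 is a beta-expansin, a protein that loosens grass cell walls. It had 3015, 3722 and 3003 in M5D and 2365, 2945 and 2711 in W5D, against 108, 73.8 and 78.8 in MBF and 74.2, 81.2 and 65.9 in WBF, and rose by 5.24 in fst and 5.18 in WT (SE 0.15 each). LAC19, a laccase, a copper oxidase linked to lignin, had 115, 66.7 and 151 in M5D and 154, 167 and 112 in W5D, against 7.88, 10.1 and 7.26 in MBF and 5.78, 7.43 and 8.07 in WBF. Its genotypes overlapped at both stages. OsAT5 encodes a BAHD acyltransferase, of a family of which some members attach hydroxycinnamates to wall components, and had 316, 367 and 416 in M5D and 402, 189 and 425 in W5D, against 22.4, 23.4 and 16.3 in MBF and 21.4, 20.2 and 17.3 in WBF. Of 113 genes on the list of wall loosening and synthesis, EXPB7 and LAC19 were the only members. Of the 113, 41 rose in both genotypes, where 9.23% of all probe sets did, and 15 fell in both. The median change was 0.41 in fst and 0.19 in WT.

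EXPB7 did not stand for its family. Of 11 beta-expansin genes with a probe set, 4 rose in both genotypes, where 9.23% of all probe sets did, and 4 fell in both. EXPB10 and EXPB9, of the pollen type, fell, with changes of -9.61 and -7.67 in fst and of -9.70 and -7.59 in WT, and EXPB6 rose by 2.27 in fst and 3.03 in WT. LAC19 lay with 3 other laccases out of 9 genes that rose in both genotypes, of which LAC10 changed by 2.67 in fst and 1.91 in WT and LAC24 by 2.56 in fst and 2.19 in WT. These family lists were drawn up after values had been seen.

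Members with a role in transport came from families in which other genes rose or fell as well. PIP1-3 encodes a plasma membrane aquaporin, a water channel. It had 2328, 2169 and 2060.4 in M5D and 2110.3, 2084 and 2721 in W5D, against 125, 116 and 199 in MBF and 271, 136 and 115 in WBF, a rise of 3.94 in fst and 3.82 in WT (SE 0.27 each). Of 10 genes of the family 2 rose in both genotypes, PIP1-3 and PIP2-1 (by 0.59 in fst and 0.33 in WT), and 2 fell in both. YSL12, of a family that moves metal complexes of nicotianamine, had 1773, 1766 and 1752 in M5D and 1094, 1021 and 888 in W5D, against 97.5, 128 and 249 in MBF and 95.3, 122 and 139.9 in WBF. All M5D arrays lay above all W5D arrays, while the BF arrays overlapped. The difference at 5 DAP (0.82) did not pass limma's test (adjusted p = 0.06076). Of 15 YSL genes, 4 rose in both genotypes and 6 fell in both.

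AMT3-2, an ammonium transporter, averaged 820.0 ± 138 in M5D and 919.9 ± 233 in W5D, against 115 ± 29.4 in MBF and 149 ± 40.8 in WBF (SD, n = 3 arrays each), and was measured by a probe set that can cross-hybridize. AMT3-3, which is not a member, rose by 2.31 in fst and 2.64 in WT, where AMT3-2 rose by 2.86 in fst and 2.63 in WT, out of 8 ammonium transporter genes of which 3 rose in both. PIN5A, of the PIN family of auxin transporters, had 233, 262 and 379 in M5D and 167, 132 and 184 in W5D, against 22.8, 27.0 and 26.3 in MBF and 21.4, 27.3 and 26.7 in WBF. Its M5D arrays lay above the W5D arrays, and its BF arrays overlapped. Of 5 PIN genes, 3 rose in both genotypes and none fell in both, among them OsPIN4, by 1.79 in fst and 1.51 in WT, and OsPIN2, by 1.23 in fst and 0.93 in WT. Of 75 genes on the list of nitrogen and metal transport, 21 rose in both genotypes and 11 fell in both. Sugar transport and cleavage, a function of seed filling, held no member among 31 genes, of which 10 rose in both genotypes and 6 fell in both.

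**Figure D3:**
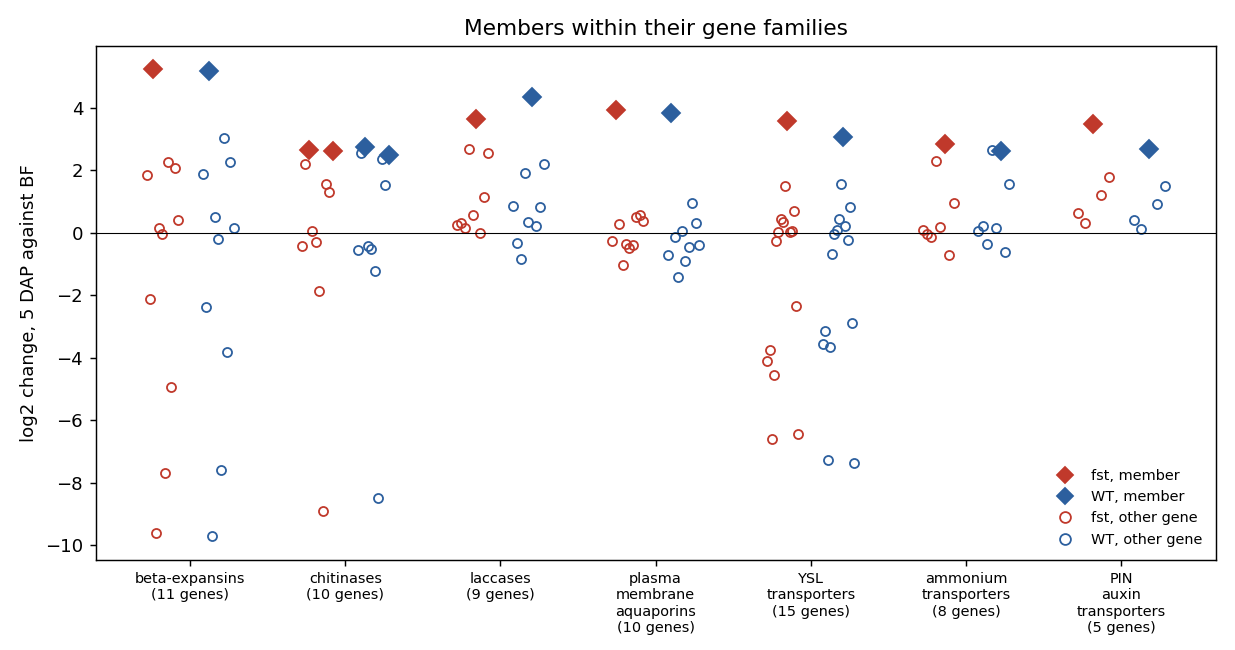
Log2 change from BF to 5 DAP in fst (red) and WT (blue) of each gene with a probe set in 7 families. Filled diamonds are members and open circles other genes. The rule took members for a large rise, and other genes spread down to -9.61 in fst and -9.70 in WT (beta-expansins). In WT, AMT3-3 (2.64) lies level with the member AMT3-2 (2.63), and Cht6 (2.57) above the member Cht8 (2.50).

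Among genes of defence, the members included chitinases and 3 genes of diterpenoid phytoalexins. Cht8 and Cht11 encode chitinases, which cut the chitin of fungal walls. Cht11 had 3953, 4435 and 4469 in M5D and 6728, 4654 and 5431 in W5D, against 768, 715 and 584 in MBF and 771, 769.7 and 948 in WBF. Cht8 averaged 8822 ± 2426 in M5D and 9783 ± 2582 in W5D, against 1388 ± 213 in MBF and 1811 ± 845 in WBF (SD, n = 3 arrays each). The other probe sets of Cht8 did not give the same picture in fst: an s-type set rose by 2.47 in fst and 3.27 in WT, and the third had a change of 1.41 in fst and 3.04 in WT with a difference of -1.89 between fst and WT at 5 DAP. Of 10 chitinase genes, 5 rose in both genotypes and 3 fell in both, among them Cht7, with changes of -8.91 in fst and -8.49 in WT. On the list of defence genes, 15 of 29 rose in both genotypes, where 9.23% of all probe sets did, and 3 fell in both. The median change was 1.07 in fst and 0.82 in WT.

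Rice makes labdane-type diterpenoid phytoalexins, antimicrobial compounds, from a common precursor. A copalyl diphosphate synthase and a kaurene synthase-like (KSL) enzyme close its rings, and cytochromes P450 oxidize the product. KSL7 makes the diterpene of the phytocassanes. It had 236, 247 and 436 in M5D and 618, 527 and 479 in W5D, against 42.9, 52.5 and 35.6 in MBF and 27.3, 55.2 and 41.5 in WBF. The rise was 2.77 in fst and 3.76 in WT (SE 0.27 each), and the M5D arrays lay below the W5D arrays. The difference at 5 DAP (-0.87) did not pass limma's test (adjusted p = 0.05135). CYP71Z7, a P450 encoded in the same cluster, had 3211, 2979.6 and 4518 in M5D and 6829, 4933 and 4641 in W5D, against 537, 665 and 538 in MBF and 483, 631 and 511 in WBF. CYP76M5, another P450 there, had 137, 168 and 133 in M5D and 212, 170.3 and 135 in W5D, against 16.8, 32.1 and 26.3 in MBF and 13.4, 19.5 and 15.3 in WBF. The fst arrays of CYP71Z7 lay below the WT arrays at 5 DAP and those of CYP76M5 overlapped with them. A further probe set of KSL7 changed by 0.50 in fst and 0.45 in WT at mean signals of 7.63 in W5D and 5.51 in WBF.

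These 3 members are near neighbours on chromosome 2. Between CYP76M5 and CYP76M6 the annotation holds 10 protein-coding genes, of which 9 have a probe set. Of the 9, 7 rose in both genotypes, as did 9.23% of all probe sets. The 7 include the 3 members, which the rule took for that rise. In gene order the changes in fst and WT were 2.58 and 3.41 for CYP76M5, 1.26 and 2.15 for CYP76M8, 2.12 and 3.11 for LOC4329723, and 2.77 and 3.76 for KSL7. CYP71Z6 interrupted the run and fell, with changes of -0.90 in fst and -0.69 in WT. CYP71Z7 followed with 2.60 in fst and 3.32 in WT, and CPS2, the copalyl diphosphate synthase of this branch, with 1.26 in fst and 1.62 in WT. KSL5 fell, with changes of -0.57 in fst and -1.18 in WT, and CYP76M6 rose by 0.35 in fst and 0.91 in WT.

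The second phytoalexin locus, on chromosome 4, which makes the momilactones, moved in the same direction without reaching the members' rank. All 5 of its genes with a probe set rose in both genotypes, as did 9.23% of all probe sets. The changes were 2.36 in fst and 2.78 in WT for CPS4, 1.91 in fst and 2.29 in WT for CYP99A3, 1.74 in fst and 2.89 in WT for OsMAS, 1.96 in fst and 2.40 in WT for KSL4, and 2.40 in fst and 3.11 in WT for CYP99A2. KSL10 on chromosome 12, the synthase of the oryzalexins, rose by 1.89 in fst and 2.85 in WT. In fst the third M5D array was the highest of its group for KSL7, CYP71Z7, CPS2, CPS4, KSL4, CYP99A2, CYP99A3, OsMAS and KSL10. It was also the highest for CYP76M8 and for CYP71Z6 and KSL5, which fell, but not for CYP76M5 and CYP76M6. Of 15 phytoalexin genes, 12 rose in both genotypes, the 3 members included, where 9.23% of all probe sets did. Another 2 fell in both. The median change was 1.89 in fst and 2.40 in WT, and the list was drawn up after values had been seen. CPS1, the copalyl diphosphate synthase of gibberellin synthesis, ran the other way, with 63.2 ± 15.8 in M5D and 48.0 ± 14.1 in W5D, against 1300.3 ± 142 in MBF and 1329.5 ± 187 in WBF (SD, n = 3 arrays each), with changes of -4.39 in fst and -4.82 in WT.

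**Figure D4:**
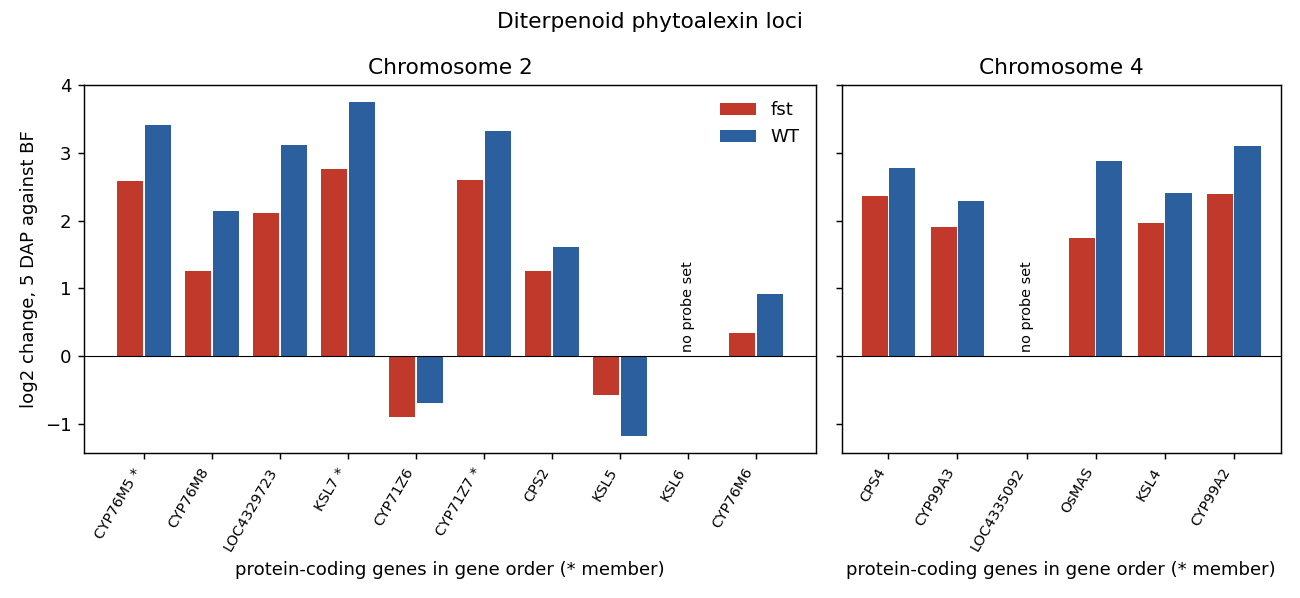
Log2 change from BF to 5 DAP in fst (red) and WT (blue) of the protein-coding genes of 2 diterpenoid phytoalexin loci, in gene order, with an asterisk at members. All bars but those of CYP71Z6 and KSL5 point up, and the upward bars are lower in fst than in WT.

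Other members also lay close together. EXPB7 and LOC4331302 on chromosome 3 were 2 protein-coding genes apart, as were Cht8 and BHLH004 on chromosome 10. LOC4348971 and LOC4348974 on chromosome 10 had 3 genes between them, and LOC4348110 and LOC4348123, both among the 15 steepest rises, had 14. Whether members lie together more often than other genes was not tested.

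Some members encode known regulators. BHLH004, a basic helix-loop-helix factor, had 342, 583 and 401 in M5D and 183, 191 and 309.7 in W5D, against 13.1, 18.1 and 12.6 in MBF and 13.9, 15.6 and 16.5 in WBF. OsMADS21, an AGAMOUS-clade MADS-box factor of ovule identity, had 698, 731 and 797 in M5D and 415, 558 and 341 in W5D, against 104, 83.3 and 112 in MBF and 63.3, 59.8 and 45.8 in WBF. For OsMADS21 every fst array lay above every WT array at both stages, and the rise was 2.90 in fst and 2.94 in WT (SE 0.18 each). Its close relative OsMADS13, not a member, rose by 1.84 in fst and 1.28 in WT.

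RR41, a response regulator of the cytokinin relay, averaged 2715 ± 67.3 in M5D and 1799 ± 348 in W5D, against 225 ± 57.7 in MBF and 205 ± 15.4 in WBF (SD, n = 3 arrays each). EIL1B, an EIN3-like factor of ethylene signalling, was at ranks near the end of the members and had 1859.9, 2299 and 2629 in M5D and 2442, 2031 and 2247 in W5D, against 262, 293 and 374 in MBF and 313, 409.6 and 464 in WBF. The other EIN3-like gene on the list fell, with changes of -0.48 in fst and -0.59 in WT. OsDOS, a CCCH zinc finger protein that delays leaf senescence, averaged 211 ± 116 in M5D and 112 ± 32.4 in W5D, against 12.6 ± 0.979 in MBF and 13.5 ± 2.39 in WBF (SD, n = 3 arrays each), with overlap of the genotypes at both stages. A second, brighter probe set of OsDOS rose by 0.91 in fst and 0.89 in WT. G1L9, of the ALOG family of nuclear proteins, averaged 113 ± 4.96 in M5D and 119 ± 38.3 in W5D, against 15.6 ± 4.80 in MBF and 10.2 ± 2.02 in WBF (SD, n = 3 arrays each).

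Of 156 genes on the list of transcription factors, 2 were members, 21 rose in both genotypes, as did 9.23% of all probe sets, and 30 fell in both. In fst 43 rose and 36 fell, and in WT 27 rose and 50 fell, with median changes of 0.02 in fst and -0.12 in WT. Of 87 genes of gibberellin, cytokinin, auxin and brassinosteroid, 2 were members, 14 rose in both and 22 fell in both. Of 54 genes of ethylene and jasmonate, 1 was a member, 10 rose in both and 8 fell in both. The lists of photosynthesis (8 genes, 1 rising in both), of chlorophyll loss and senescence (12 genes, 7 rising in both), of abscisic acid and dehydration (80 genes, 13 rising in both) and of heat shock (25 genes, 1 rising and 11 falling in both) held no member.

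Probe sets of the same genes that the rule did not take give a view beside it. The genes of the members had 31 further probe sets, over 23 genes. Of these, 13 rose in both genotypes by limma's test, as did 9.23% of all probe sets, and 18 did not. Of the 18, 9 had mean signals under 50 in all 4 groups. The median of the smaller rise over the 31 was 0.19. Some of these sets share probes or sequence with the member sets and are not separate measurements of the gene.

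Within the limit of the rule the genotypes still differed at 5 DAP for some members. By limma's test 35 of the 150 did so, 26 higher and 9 lower in fst, where 11.6% of all probe sets did (6.22% higher and 5.41% lower). Without the third W5D array 21 did so, 16 higher and 5 lower, and among the 116 members not marked for cross-hybridization 23 did. The rule left out larger differences and kept members with high signal, and nothing is read from this count. The median difference was 0.13, and 85 of 150 were higher in fst by any amount. Differences near the upper limit included those of PRX112, BHLH004 (0.96) and PIN5A (0.84). The largest below 0 among those past the test was that of LOC4332469, at -0.97, with mean signals of 992 in M5D and 1920.3 in W5D. LOC4336091, the most abundant member in WT, had 8248, 8892 and 8152 in M5D and 11914, 13277 and 13454 in W5D, against 1675, 1417 and 1346 in MBF and 1792, 1186 and 1349 in WBF.

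Before flowering, 3 of 150 members differed between the genotypes by limma's test, 1 higher and 2 lower in fst, against 4.62% of all probe sets (1.81% higher and 2.8% lower). The number past the test was 5 without the third MBF array or with a filter on dim probe sets, 6 without the third M5D array or with quantile normalization, and 8 with eBayes with trend and robust. By size, 146 of 150 differed by less than 1 on the log2 scale. The lower and upper quartiles of the difference were -0.17 and 0.35 for the members and -0.12 and 0.19 for all probe sets. The BF means entered the rule, and the members varied more between arrays than the rest, so that nothing is read from these quartiles. The member higher in fst was OsMADS21 (0.83, adjusted p = 0.0214 from limma). The members lower in fst were LOC4343713 (-1.77, adjusted p = 0.000577) and LOC4350066 (-0.85, adjusted p = 0.0177 from limma), which had 27.0, 41.6 and 37.8 in MBF and 70.5, 64.7 and 54.8 in WBF. Without the first or the third MBF array or the third WBF array, the adjusted p of OsMADS21 was 0.0686 to 0.0692. The largest difference by size, that of LOC4348110 (-2.42), whose first WBF array stood apart, did not pass the test (adjusted p = 0.133 from limma). Differences of -1.07 for LOC4340592 and of -1.14 and 0.92 for probe sets without a listed gene at ranks 75 and 87 also missed it. Without the second WBF array that at rank 75 became -1.84 and passed (adjusted p = 0.0321 from limma), and without the third MBF array that at rank 87 became 1.30 and passed (adjusted p = 0.0488 from limma).

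**Figure D5:**
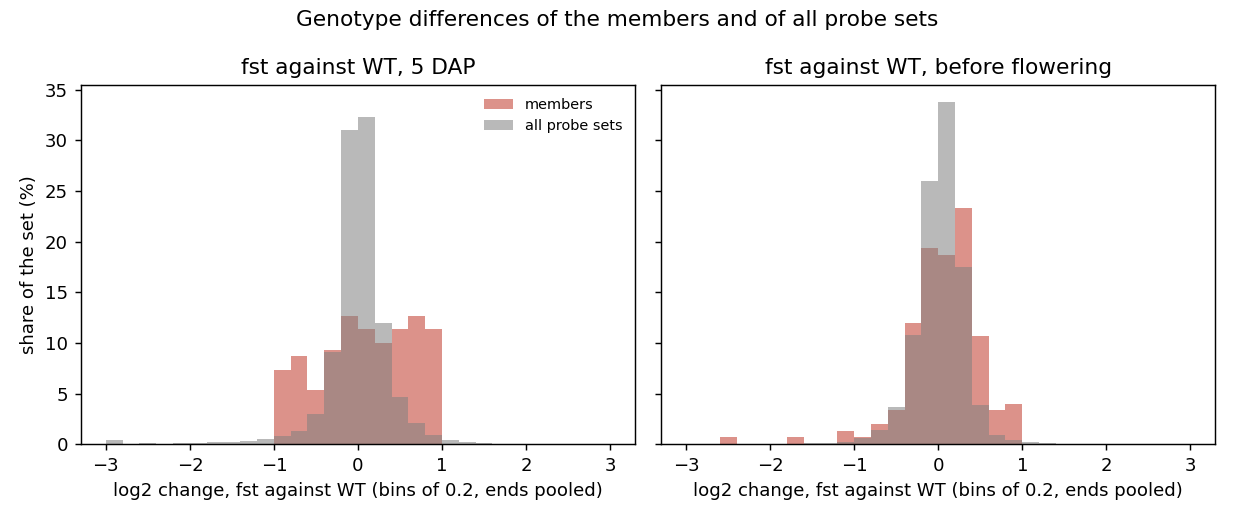
Share of the members (red) and of all probe sets (grey) by log2 difference between fst and WT at 5 DAP (left) and before flowering (right), in bins of 0.2. At 5 DAP the members end at -1 and 1, as the rule sets. Before flowering 146 of 150 lie within the same limits, as do most of all probe sets.

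The rise in fst minus that in WT had a median of 0.06, was positive for 79 members and negative for 71, and was under 1 in size for 136. By limma's test of the interaction of genotype and stage, 13 of 150 members differed in rise, 11 with the larger rise in fst and 2 with the larger rise in WT, against 6.35% of all probe sets (3.6% with the higher change in fst and 2.75% with the higher change in WT). Among the 13 were PRX112, LOC4343713, both probe sets of LOC4330953 (rises of 4.62 and 4.52 in fst and of 3.50 and 3.83 in WT) and LOC4350066 (3.99 in fst and 2.60 in WT). Those with the larger WT rise were LOC4333088 (3.36 in fst and 4.02 in WT) and a probe set without a listed gene at rank 60 (3.17 in fst and 4.75 in WT). Leaving out the first WBF array, the first or second W5D array or the second M5D array left 8 in place of 13. At the limit of the list, Cht8 at rank 150 had a smaller rise of 2.50, EIL1B at rank 148 had 2.52 and LOC4345351 at rank 149 had 2.50, while the first 3 probe sets outside had 2.49 each.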

How the data were processed

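Total RNA of panicles was hybridized to 12 Affymetrix Rice GeneChip arrays. The authors computed the deposited intensities with RMA in Affymetrix Expression Console (versions not given in the sources used here), on a linear scale, so that arrays had already been made alike. Precision is set by the 3 arrays of each group. They are biological replicates per the labels, each a pool of panicles, so p-values measure the spread between pools. Signals were taken to log2 after a floor of 1 (the lowest was 3.00), and a mean per group was fitted to 57258 probe sets (123 controls left out) with limma 3.58.1 in R 4.3.3 (8 residual degrees of freedom, eBayes, Benjamini-Hochberg over all probe sets within a contrast, threshold 0.05). Tables were joined with pandas 2.3.3. An exact permutation test of 3 against 3 arrays could give no p under 0.1. Where the arrays of fst and WT are said to lie apart, that is a description, and limma's test need not have called the difference. The fit was tested on simulated data. The study's methods name signal ratios and no test.

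Members and gene lists were chosen with earlier results of these data known. A list took genes by their symbol or synonym, with 1 probe set per gene, that of the highest mean log2 signal, and the matching was narrower than first written (family name followed by a number), so a list can miss genes. Genes were named by rule: the 15 steepest, the 3 on each side of rank 150, all with a name of meaning, the 5 highest, the 5 with the largest genotype difference before flowering, and neighbours or genes with several probe sets. Members named in the counts on genotype and on the interaction were chosen after their values were seen. Counts of listed genes that rose in both genotypes stand against 9.23% of all probe sets. The lists took the brightest probe set of a gene, so the levels are unlike. The share of all probe sets that fell in both is not given. Over all probe sets, 22436 had 1 listed gene, 95 several and 34727 none. 1 probe set is not reported here. Alternatives were quantile normalization again, centring, a filter on dim probe sets (signal above 32.2 in a group), no cross-hybridizing sets, leaving out each array, the replicate number as a block, eBayes with trend and robust, arithmetic means, and a limit of 0.5 at 5 DAP.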

Additional observations from a re-analysis of the deposited data

Results flagged for a closer look

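Among the members named by rule, limma's test of the interaction of genotype and stage called PRX112, LOC4343713 and both probe sets of LOC4330953. The rule ranked by the smaller rise and limited the difference at 5 DAP, so these differences come from values it used. They are given as a description, and nothing is read from the calls. For PRX112 the rise in fst minus that in WT was 1.16, with fst higher at 5 DAP and overlap before flowering, and it lost the call in 9 of 12 fits that left out 1 array. For LOC4343713 it was 1.96, with the genotypes overlapping at 5 DAP and fst lower before flowering, and the call was kept in all 12 fits. For LOC4330953 it was 0.68 in the probe set that can cross-hybridize, where the call was lost in 11 of 12 fits, and 1.12 in the other, where it was kept in all 12. In both sets every M5D array lay above every W5D array, and the BF arrays overlapped. The 2 sets measure the same gene in the same RNA and are not independent.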

How the results depend on the processing

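All 150 members kept their rise and its call in both genotypes under quantile normalization, centring, the dim filter, the block, eBayes with trend and robust, and without any single array, and the 116 not marked for cross-hybridization kept theirs. The rule had taken these members for the largest rises on the same arrays, so that this follows from the choice and is no separate support. The rule found 75 members again with a limit of 0.5 at 5 DAP, since the other members differ by 0.5 or more between the genotypes there. Without 1 array it found 133 to 145. The median rise without 1 array was 3.22 to 3.39 in fst and 3.23 to 3.39 in WT. Members differing between genotypes at 5 DAP numbered 23 instead of 35 without cross-hybridizing sets (fewer members remain) and 21 to 38 without 1 array, with 21 when the third W5D array was left out. Before flowering 3 became 6 with quantile normalization, 5 with the dim filter, 8 with eBayes with trend and robust, and 2 to 6 without 1 array (6 without the third M5D array); the cause was not tested. Differences in rise numbered 8 to 14 without 1 array. Of 153 genotype and interaction results of named members, 31 changed side of the threshold in some fit and 0 reversed.

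The replicate numbers did not pair the samples: deviations of same-numbered arrays correlated at -0.29 to 0.07 over 18 pairs. With the replicate number as a block, 32 members differed at 5 DAP, 3 before flowering and 10 in rise, and the difference at 5 DAP of RR41 (0.61) and CYP71Z7 (-0.62) and the difference in rise of 1 probe set of LOC4330953 (0.68), each of the same size as without the block, no longer passed limma's test. Signals near the lowest of the array limit the rises of the 31 members under 20 before flowering.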
